A study of Mus musculus with 24 samples.

Results

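The heat shock and cytosolic chaperone genes are a set of 38 mouse genes. They were picked by symbol for what they encode or as known targets of heat shock factor 1. They comprise 6 members of the cytosolic HSP70 family, 3 HSP110 genes, 2 cytosolic HSP90 genes, 6 small heat shock proteins, 3 mitochondrial chaperones, 8 J proteins, 4 co-chaperones of HSP70, 4 co-chaperones of HSP90 and 2 heat shock factors. Each symbol had 1 row among the 52724 gene rows of the count table, and all 38 passed the filter on low counts that left 16018 genes for testing.

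RNA of whole mouse hearts was sequenced in 24 libraries of 4 genotypes, 6 libraries each, in 2 labelled batches that hold 3 libraries of every genotype. The series asks what the immunophilin FKBP12, the product of Fkbp1a, does in the heart, and its design text describes floxed Fkbp1a mice that express Cre recombinase in muscle. Hearts labelled FKl/l are the floxed line without a named Cre, FKl/l MHC+ hearts also carry Cre under the α-myosin heavy chain promoter, and FKl/l MCK+ hearts carry Cre under the muscle creatine kinase promoter. Hearts labelled MHC CRE Only carry the first of these Cre drivers, and the labels do not say whether they have a floxed allele. The design text puts the onset of the α-myosin heavy chain driver at embryonic day 9 and that of the muscle creatine kinase driver at embryonic day 13, with different Cre levels. The floxed allele is thus shared by FKl/l and both deletion genotypes, and the α-myosin heavy chain Cre by FKl/l MHC+ and MHC CRE Only. Age, sex and strain are not given, and the labels leave unstated whether every heart came from another animal; p-values then reflect only how these libraries scatter, which may be technical. Names such as FKl/l 2-3 give genotype, then batch, then number.

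When proteins unfold, heat shock factor 1 (HSF1) is released from chaperones that hold it inactive, binds heat shock elements in DNA and raises transcription of inducible chaperone genes. HSP70 binds unfolded segments, J proteins deliver the client and trigger ATP hydrolysis, HSP110 and BAG proteins release the nucleotide, and HSP90 with its co-chaperones takes over a subset of clients such as kinases and steroid receptors. Cardiomyocytes also hold large amounts of small heat shock proteins, which bind unfolding filament proteins without ATP, and BAG3 links the small heat shock protein HSPB8 and HSP70 to the disposal of damaged filamin at the Z-disc.

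The promoter sequences below are those of the genes on which the results turn. Hspa1a and Hspa1b, the stress-inducible HSP70 pair, varied most between libraries, Hspb1 was higher in FKl/l MHC+ hearts, and Hsph1 and Hspe1 show the heat shock element in its short and long forms. Sequences come from RefSeq on build GRCm38.p6, which is the mm10 assembly of the submitters' processing notes, and are printed 5′ to 3′ on the strand of the gene. The first 3 are the 250 bases before the start site and the last 2 are stretches of 30 bases around a match, and capitals mark matches to the heat shock element.
Hspa1a, chr17:34972157-34972406, minus strand: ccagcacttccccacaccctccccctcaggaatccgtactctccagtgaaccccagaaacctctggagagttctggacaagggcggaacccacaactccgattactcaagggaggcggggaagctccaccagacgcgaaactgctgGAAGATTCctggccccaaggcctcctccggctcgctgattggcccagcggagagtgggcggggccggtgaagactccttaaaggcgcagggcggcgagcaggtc
Hspa1b, chr17:34959239-34959488, minus strand: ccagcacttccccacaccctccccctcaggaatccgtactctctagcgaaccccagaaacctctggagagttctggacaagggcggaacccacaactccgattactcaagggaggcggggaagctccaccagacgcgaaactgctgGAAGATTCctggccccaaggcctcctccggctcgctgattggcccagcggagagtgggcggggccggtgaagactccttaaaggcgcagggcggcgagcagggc
Hspb1, chr5:135887669-135887918, plus strand: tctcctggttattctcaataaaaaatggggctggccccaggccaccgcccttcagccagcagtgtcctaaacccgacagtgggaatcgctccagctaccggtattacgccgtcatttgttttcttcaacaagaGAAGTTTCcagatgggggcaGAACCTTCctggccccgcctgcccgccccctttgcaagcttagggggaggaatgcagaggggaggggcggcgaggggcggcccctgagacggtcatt
Hsph1, chr5:149636351-149636380, minus strand: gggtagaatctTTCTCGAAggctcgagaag
Hspe1, chr1:55088053-55088082, plus strand: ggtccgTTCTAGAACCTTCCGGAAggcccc

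The short form searched was 2 alternating units spaced by 2 bases, GAANNTTC or TTCNNGAA, and the long form was 3 such units, GAANNTTCNNGAA or TTCNNGAANNTTC. Both strands were covered, and every match to the long form holds 2 overlapping matches to the short form. Of the 38 genes, 32 matched an entry of the promoter table; Hspa8, Hspa9, Hsp90aa1, Hsp90ab1, Hspb2 and Hsf1 did not. As a gene can have several start sites, the 32 genes had 44 windows. The short form was present in 15 of the 44 windows (34.1%), which belong to 13 genes, against 12.8% of all 32817 promoter windows of that length. The long form was present in 4 of the 44 (9.09%), of Dnajb6, Hspd1 and Hspe1, against 0.466% of all windows. Hspd1 and Hspe1, the subunits of the mitochondrial chaperonin, are neighbours on opposite strands of chromosome 1 whose windows overlap, and the printed Hspe1 stretch lies in both. The Dnajb6 windows also overlap and hold the same long match, and the Hsph1 windows hold the same short match. The window counts of the members thus include some stretches more than once. A match describes the letters in this window and is not evidence of binding. As the genes were picked in part as HSF1 targets, their higher shares of the element are not an independent result.

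The promoters of Hspa1a and Hspa1b differed at 3 of their 250 bases, and each had 1 short match 104 bases before the start site. Their open reading frames were 99.4% identical, with identical runs of up to 638 bases, so the split of reads between these genes is uncertain and their counts are best read together. Hspa1l, the third HSP70 gene of the same cluster on chromosome 17, was 82.8% identical to Hspa1a over the reading frame. Its longest identical runs were 233 bases with Hspa1a and 188 bases with Hspa1b, so some reads of this pair may also be counted for Hspa1l. Annotated exons of Hspa1l overlap those of Gm10501 on the opposite strand over 1778 bases, and exons of Dnaja4 overlap those of Skic8 over 1581 bases. Such overlaps also join Stub1 with Jmjd8 (1084 bases), Hspa1a with Gm20481 (564 bases) and Hspb2 with the abundant crystallin gene Cryab (252 bases). The library kit keeps strand, but the strand setting of the counting is not given in the sources used here, so reads of such partners may not be fully separated. Skic8 averaged 11.9 ± 0.711 CPM (counts scaled to a common library size; SD, n = 6) in FKl/l and 12.1 ± 0.98 CPM in FKl/l MHC+ hearts.

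The libraries held 27799403 to 40412640 counts in gene rows, of which 25.7 to 36.5% fell in mitochondrially encoded genes and 0.735 to 1.02% in the 38 chaperone genes. The cardiomyocyte markers were at high levels in every library, Myh6 at 15267 to 23295 CPM. Fkbp1a was lower in FKl/l MCK+ (65.1 ± 10.7 CPM; SD, n = 6) and FKl/l MHC+ (59.1 ± 12.6 CPM) than in FKl/l hearts (130 ± 10.1 CPM), a 2.01-fold difference for the first (adjusted p = 0.00032 by edgeR) and one of −1.15 on the log2 scale for the second (SE 0.125, adjusted p = 5.47e-06). Fkbp1a was at 81.8 CPM in the library labelled MHC CRE Only 1-3, against 122 to 138 CPM in the other libraries of that label. The highest FKl/l MCK+ library had 81.1 CPM. The labels do not explain this low value, and whether the label is right was not tested. MHC CRE Only 2-3 and FKl/l 1-1 stood apart by markers of lung and airway epithelium, with summed levels of 1210 and 453 CPM where the medians of their groups were 44.2 and 3.58 CPM. Values or counts without these 3 libraries are given for some of the calls that they change. In whole hearts, fewer cells of a type and less RNA per cell cannot be told apart.

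Levels between genes are compared as CPM per kilobase of annotated exon. The most abundant was Hspb7, a small heat shock protein of heart and skeletal muscle that binds filamin C, at 435 ± 76 CPM per kilobase (SD over 24 libraries). Hspa8, the constitutive HSP70, followed at 423 ± 53.1, and the small heat shock protein genes Hspb6 at 390 ± 45.6, Hspb1 at 289 ± 57.1 and Hspb8 at 283 ± 40.1. The constitutive HSP90 gene Hsp90ab1 had 350 ± 52.8 CPM per kilobase, while its stress-responsive partner Hsp90aa1 had 44.9 ± 16.2. Within their classes the highest were Bag3 among HSP70 co-chaperones (109 ± 18.5), Hspa9 among mitochondrial chaperones (102 ± 6.93), Stip1 among HSP90 co-chaperones (49.6 ± 5.41), Dnaja2 among J proteins (42.8 ± 3.75), Hspa4 in the HSP110 class (18.4 ± 2.09) and Hsf1 among the factors (4.30 ± 0.245). Hspb7, Hspa8 and Hspb6 lay within 1 SD of each other, as did Hspb1 and Hspb8, and as did Bag3, Bag1 and Hspa9. The lowest were Hspa2, at 1.40 ± 0.228, and Hsf2, at 1.24 ± 0.115.

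**Figure D1:**
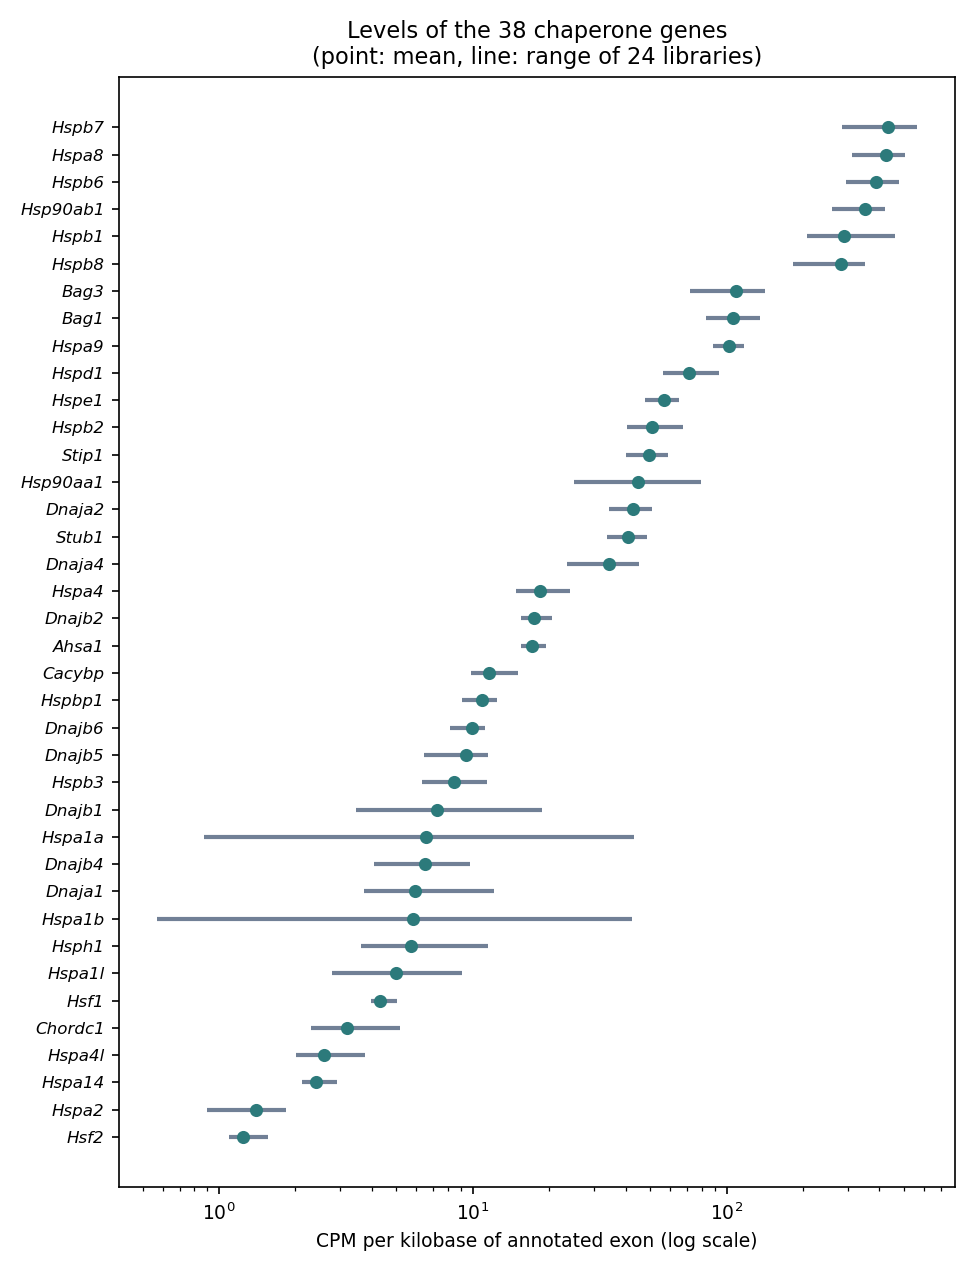
Level of each of the 38 chaperone genes as CPM per kilobase of annotated exon on a log axis; points are means and lines the lowest and highest of 24 libraries. Hspb7, Hspa8, Hspb6, Hsp90ab1, Hspb1 and Hspb8 stood highest, and Hspa1a and Hspa1b had the widest range of all the genes shown.

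The inducible HSP70 genes were at low level in most hearts and high in a few of 3 genotypes. Hspa1a had 3.21, 13.9 and 129 CPM as the lowest, median and highest values in FKl/l hearts, and 2.83, 18.4 and 91.6 CPM in FKl/l MHC+ hearts. In MHC CRE Only hearts they were 3.52, 5.72 and 6.93 CPM, and in FKl/l MCK+ hearts 2.60, 5.38 and 12.7 CPM. The highest values were those of all 3 FKl/l libraries of batch 2 (21.6, 61.4 and 129 CPM), of FKl/l MHC+ 1-1, 2-2 and 2-3 (30.2, 36.0 and 91.6 CPM) and of FKl/l MCK+ 2-3 (12.7 CPM). All 4 genotypes overlapped, and FKl/l MHC+ 2-1, of the same batch as 2-2 and 2-3, had only 2.83 CPM.

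Hspa1b, whose reads cannot be cleanly separated from those of Hspa1a, had 18.1, 58.9 and 119 CPM in the batch 2 libraries of FKl/l and 19.3, 30.6 and 83.7 CPM in FKl/l MHC+ 1-1, 2-2 and 2-3. In FKl/l MCK+ 2-3 it was at 8.99 CPM, and in the remaining libraries between 1.60 and 5.95 CPM. The high values thus fell in the same 7 libraries as those of Hspa1a. Dnajb1, the J protein that partners inducible HSP70 and is itself an HSF1 target, had 29.5, 42.2 and 60.1 CPM in the FKl/l libraries of batch 2 and 37.1, 39.4 and 49.2 CPM in FKl/l MHC+ 1-1, 2-2 and 2-3. It had 12.7 CPM in FKl/l MHC+ 2-1, and 20.0 to 32.4 CPM in the FKl/l MCK+ libraries of batch 2. Hsph1, an HSP110 nucleotide exchange factor, was highest in FKl/l MHC+ 2-3 and 2-2 (83.3 and 76.4 CPM) and in FKl/l 2-3 and 2-2 (69.5 and 55.2 CPM).

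**Figure D2:**
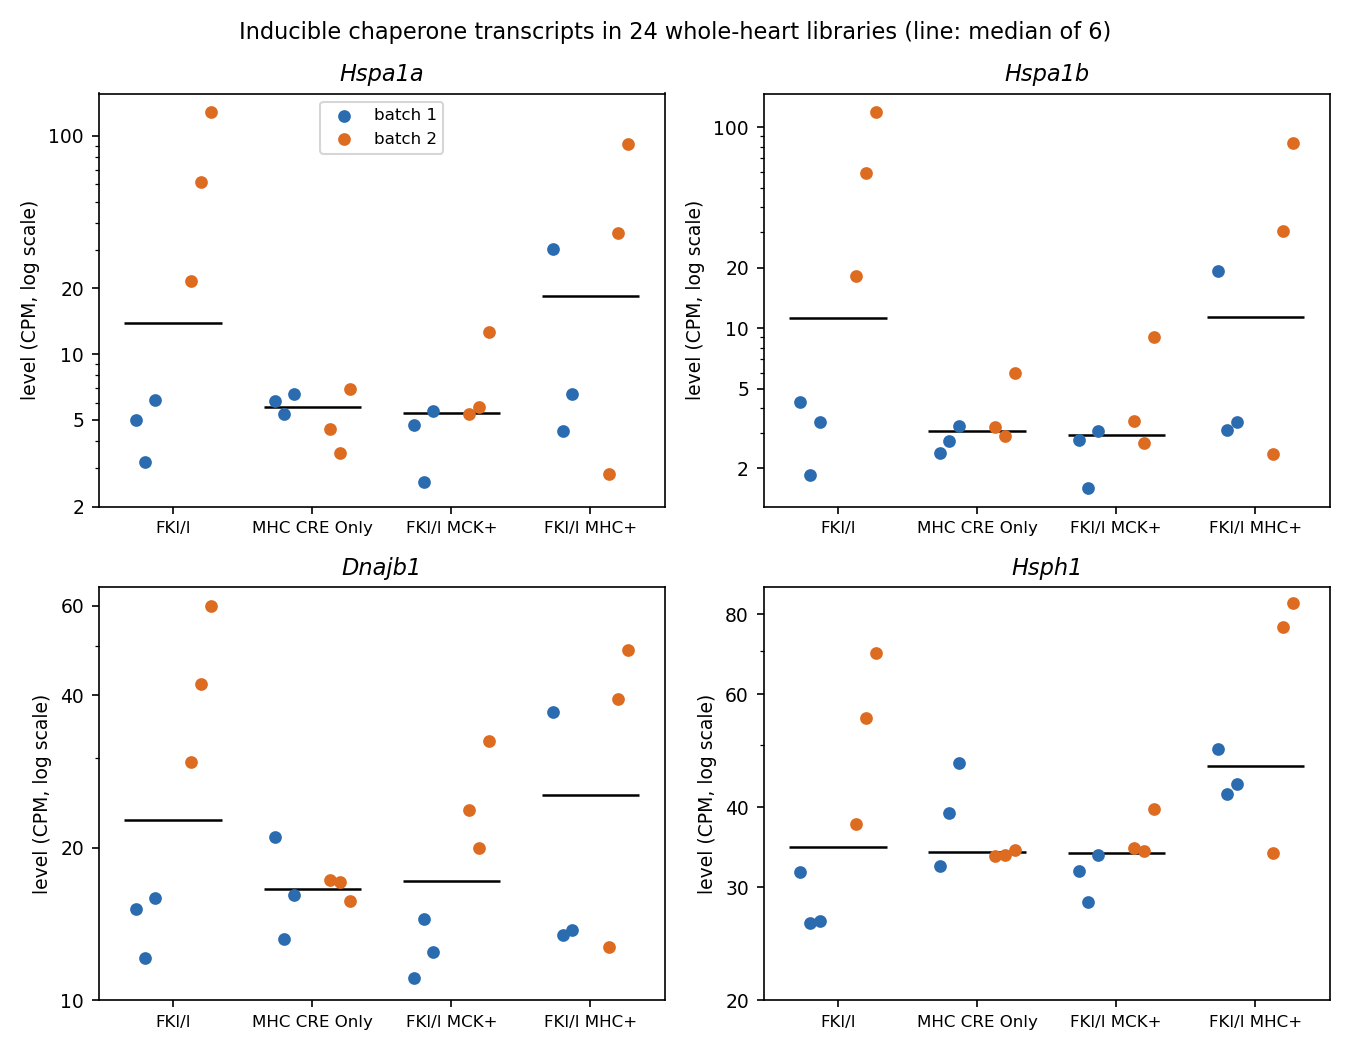
Level in CPM on a log axis of Hspa1a, Hspa1b, Dnajb1 and Hsph1 in each library by genotype, with batch 1 in blue, batch 2 in orange and a line at the median of 6. High points occur in FKl/l and FKl/l MHC+ hearts, and the MHC CRE Only hearts stay below 7 CPM for both Hspa1 genes.

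The spread between hearts of the same genotype and batch was largest for Hspa1b and Hspa1a among the 38 genes. The SD of log2 CPM about the genotype and batch means was 1.27 for the first and 1.21 for the second, at percentiles 99.3 and 99.2 of the 16018 genes tested, whose median was 0.184. Dnajb1 followed with 0.544, Dnaja1 with 0.406, Hsp90aa1 with 0.339 and Hsph1 with 0.326. At the other end, Ahsa1, the activator of the HSP90 ATPase, had an SD of 0.0659, at percentile 0.955, and Hspa9, the mitochondrial HSP70, had 0.0740. Hsf1 had 0.0841, and its lowest and highest levels in all 24 libraries were 28.1 and 35.6 CPM.

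Immediate early genes, which respond within minutes to stress, handling or growth signals, were high in several of the same libraries. The summed level of 21 such genes was 826, 743 and 593 CPM in FKl/l MHC+ 2-3, 2-2 and 1-1, and 331 CPM in FKl/l MHC+ 2-1. It was 541, 512 and 587 CPM in the FKl/l libraries of batch 2, but also 610 CPM in MHC CRE Only 2-3, where Hspa1a was at 6.93 CPM. Over the groups the range was 385 to 587 CPM in FKl/l, 368 to 610 CPM in MHC CRE Only, 325 to 516 CPM in FKl/l MCK+ and 331 to 826 CPM in FKl/l MHC+. Their part in the chaperone levels was not tested.

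Deletion with the muscle creatine kinase driver gave no called change in any of the 38 genes. In FKl/l MCK+ against FKl/l hearts, edgeR's quasi-likelihood test with batch as a term called 0 of 38 members at an adjusted p under 0.05, where 0.0499% of all 16018 genes were called. There were 4 members at an unadjusted p under 0.05, Hspa1b, Hspa1a, Hspb3 and Hspb7, against 5.24% of all genes, and DESeq2 called 0. The median log2 fold change was −0.03 over the members and 0.00 over all genes. The 3 smallest p-values were those of Hspa1b (log2 fold change −2.51, SE 0.848, adjusted p = 0.797), Hspa1a (−2.12, SE 0.807, adjusted p = 0.845) and Hspb3, a muscle small heat shock protein (0.21, SE 0.0854, adjusted p = 0.859). Within batch 1 the Hspa1b value was −0.37 (SE 0.736) and within batch 2 it was −3.73 (SE 1.22), as the 3 FKl/l libraries with high levels all belong to batch 2.

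Hspb1 and Dnaja4 were higher in FKl/l MHC+ than in FKl/l hearts, which differ in Cre as well as in deletion. Neither gene was called against MHC CRE Only hearts. Of the 38 members 2 were called in FKl/l MHC+ against FKl/l hearts, both higher, where 1.71% of all genes were called in either direction and 1.06% as higher. The median log2 fold change of the members was 0.09 against 0.00 for all genes, and 25 of the 38 lay above 0, against 49.2% of all genes. By class, 1 of 6 small heat shock proteins and 1 of 8 J proteins rose, and no member of the other 7 classes passed the test. The count was 4 without FKl/l MHC+ 2-1 and 1 without FKl/l MHC+ 2-3.

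Hspb1 (ENSMUSG00000004951, chr5:135887919-135889563 on GRCm38) encodes HSP27, which binds unfolding proteins and stabilises actin filaments. Its lowest, median and highest levels were 214, 263 and 314 CPM in FKl/l hearts and 262, 372 and 476 CPM in FKl/l MHC+ hearts. The groups overlapped only through FKl/l MHC+ 2-1 and FKl/l 1-1, 1-2 and 2-3. The difference was 0.47 on the log2 scale (SE 0.103, adjusted p = 0.0115, a fold of 1.39), with 0.64 (SE 0.137, adjusted p = 0.031) within batch 1 and 0.33 (SE 0.132, adjusted p = 0.375) within batch 2. It stayed called when any single library was left out (adjusted p up to 0.0483), but had an adjusted p of 0.0723 in a fit of these genotypes alone.

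Dnaja4 (ENSMUSG00000032285, chr9:54698873-54716315) encodes a J protein of striated muscle that works with HSP70. It had 96.2, 109 and 129 CPM as the lowest, median and highest values in FKl/l hearts and 136, 142 and 162 CPM in FKl/l MHC+ hearts. Every FKl/l MHC+ library was above every FKl/l library. The log2 difference was 0.38 (SE 0.0857, adjusted p = 0.0167, a fold of 1.30), with 0.51 (SE 0.107, adjusted p = 0.0293) within batch 1 and 0.28 (SE 0.0715, adjusted p = 0.0699) within batch 2. The adjusted p was 0.0563 without FKl/l MHC+ 2-3, its highest library, and 0.0796 without the batch term.

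Among members that did not pass, Hspa1l (ENSMUSG00000007033, chr17:34972703-34979285), best known as the HSP70 of germ cells, had the smallest p. Its lowest, median and highest levels were 9.02, 10.4 and 13.3 CPM in FKl/l and 12.9, 16.1 and 22.4 CPM in FKl/l MHC+ hearts, which overlap only through FKl/l 1-1 and FKl/l MHC+ 2-1. The log2 difference was 0.63 (SE 0.170, adjusted p = 0.0577), and without the 3 libraries that stand apart it was 0.71 with an adjusted p of 0.00818. Hspb7 differed by 0.31 (SE 0.0989, adjusted p = 0.113) and Hspa4l, an HSP110 gene, by 0.24 (SE 0.0882, adjusted p = 0.165).

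Against the hearts with Cre alone, the called member was another gene. In FKl/l MHC+ against MHC CRE Only hearts 1 of 38 members was called, Hsp90aa1, where 1.87% of all genes were called and 1.09% as higher, and the median was 0.13 over the members and −0.02 over all genes. Hsp90aa1 (ENSMUSG00000021270, chr12:110690605-110702728) encodes the inducible cytosolic HSP90, and it had 98.9, 124 and 171 CPM as the lowest, median and highest levels in MHC CRE Only and 104, 276 and 311 CPM in FKl/l MHC+ hearts. Of the FKl/l MHC+ libraries 5 were above all MHC CRE Only libraries, and 2-1 lay among the lowest of them. The log2 difference was 0.92 (SE 0.180, adjusted p = 0.0102, a fold of 1.90), at 0.92 (SE 0.162, adjusted p = 0.0244) within batch 1 and 0.95 (SE 0.329, adjusted p = 0.141) within batch 2. In FKl/l hearts Hsp90aa1 was between, at 130, 177 and 221 CPM, and the log2 difference of FKl/l MHC+ from FKl/l was 0.44 (SE 0.179, adjusted p = 0.240).

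The Hsp90aa1 call held without the library labelled MHC CRE Only 1-3 (0.89, adjusted p = 0.0241) and without any other single library. Without the 3 libraries that stand apart the log2 difference was 0.89 with an adjusted p of 0.0604, and without the batch term the adjusted p was 0.0542. Hspb1 had a log2 difference of 0.30 (SE 0.103, adjusted p = 0.124) from MHC CRE Only hearts and Dnaja4 one of 0.23 (SE 0.0856, adjusted p = 0.167). MHC CRE Only hearts held 271 to 316 CPM of Hspb1. The other members nearest to the threshold were Hsp90ab1 (0.24, SE 0.0753, adjusted p = 0.0949) and Hspa1l (0.51, SE 0.170, adjusted p = 0.122). Without the library labelled MHC CRE Only 1-3, where Hspa1l was at 17.7 CPM against 8.40 to 13.0 CPM in the others, 4 members were called in place of 1, and without FKl/l MHC+ 2-1 there were 3.

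The Cre driver alone gave no called member. MHC CRE Only against FKl/l hearts had 0 of 38 called by edgeR, where 0.0437% of all genes were called. At an unadjusted p under 0.05 there were 6, against 12.9% of all genes, and DESeq2 called 1, Hspa1b. The median was −0.01 for the members and 0.00 for all genes. The smallest p-values belonged to Hspa1b (log2 difference −2.55, SE 0.865, adjusted p = 0.222), Hsp90aa1 (−0.48, SE 0.179, adjusted p = 0.254) and Cacybp, a partner of the ubiquitin ligase SIAH1 with an HSP90-binding domain (−0.22, SE 0.0848, adjusted p = 0.266). The Hspa1b value was −0.19 (SE 0.735) within batch 1 and −4.01 (SE 1.23) within batch 2.

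The deletion genotypes were also compared with each other. In FKl/l MHC+ against FKl/l MCK+ hearts 4 of 38 members were called, all higher in FKl/l MHC+, where 2.15% of all genes were called and 0.986% as higher; the median was 0.13 over the members and −0.01 over all genes. They were Hspb1 (log2 difference 0.45, SE 0.103, adjusted p = 0.0193), Dnaja4 (0.34, SE 0.0857, adjusted p = 0.0302), Hsp90aa1 (0.75, SE 0.179, adjusted p = 0.0316) and Hspa1l (0.66, SE 0.170, adjusted p = 0.0401). These comparisons share the FKl/l MHC+ libraries with those above, so the calls are not independent of them.

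Levels in FKl/l MCK+ hearts were 230, 262 and 314 CPM for Hspb1 as the lowest, median and highest, near the 214 to 314 CPM of FKl/l. For Dnaja4 they were 84.4, 118 and 133 CPM, all below the lowest FKl/l MHC+ library at 136 CPM. For Hsp90aa1 they were 117, 139 and 211 CPM, and for Hspa1l 6.89, 10.8 and 12.7 CPM. FKl/l MHC+ hearts were above all FKl/l MCK+ hearts in 6 of 6 libraries for Dnaja4 and Hspa1l, and in 5 of 6 for Hspb1 and Hsp90aa1, with 2-1 the exception in both.

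Of the members that were not called between the deletion genotypes, Stip1, the adaptor that hands clients from HSP70 to HSP90, came nearest (0.25, SE 0.0768, adjusted p = 0.0844). Hsph1 had a log2 difference of 0.68 (SE 0.213, adjusted p = 0.109) and Hspa4l one of 0.26 (SE 0.0883, adjusted p = 0.122). Omitting FKl/l MCK+ 1-1, or 1-3 or 2-3 of FKl/l MHC+, ended the Hspb1 call (adjusted p up to 0.0673). That of Dnaja4 depended on each of 6 libraries (up to 0.0866), that of Hsp90aa1 on each of 10 (up to 0.0940) and that of Hspa1l on each of 13 (up to 0.119). Without FKl/l MHC+ 1-3 or FKl/l MHC+ 2-3 none of the 38 was called, and without any one FKl/l MCK+ library 1 or 2 were. Within batch 1 and batch 2 the log2 differences were 0.74 and 0.21 for Hspb1, 0.55 and 0.19 for Dnaja4, 0.81 and 0.72 for Hsp90aa1 and 0.74 and 0.63 for Hspa1l.

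**Figure D3:**
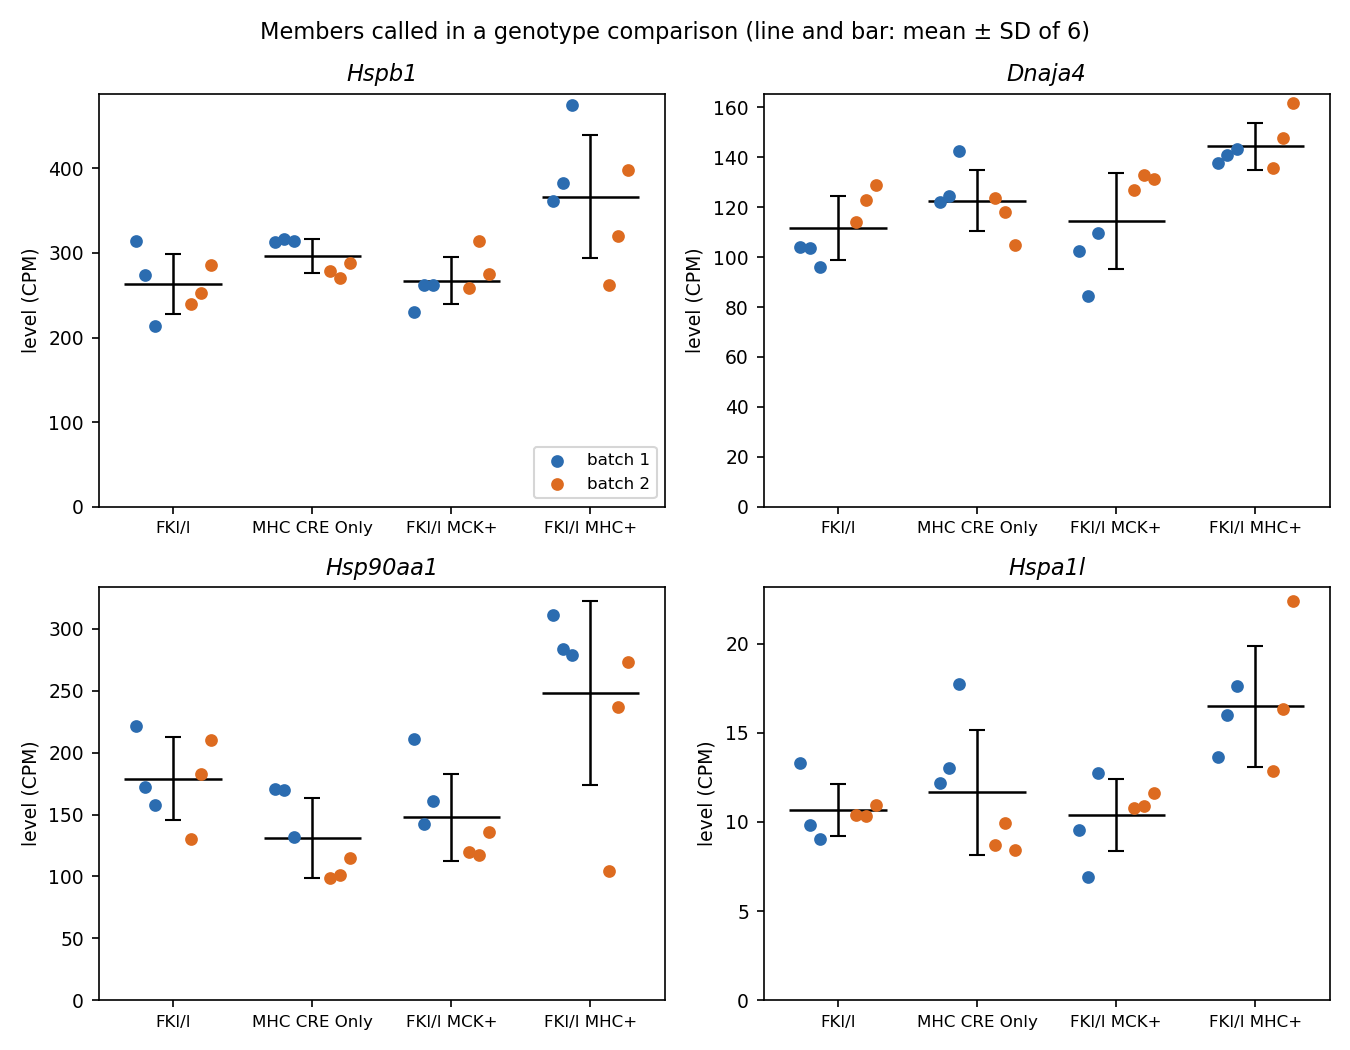
Level in CPM of Hspb1, Dnaja4, Hsp90aa1 and Hspa1l in each library by genotype, with batch 1 in blue, batch 2 in orange, and lines and bars for the mean ± SD of 6. FKl/l MHC+ hearts have the highest mean of each gene, and Dnaja4 in them is at or above 136 CPM in every library.

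**Figure D4:**
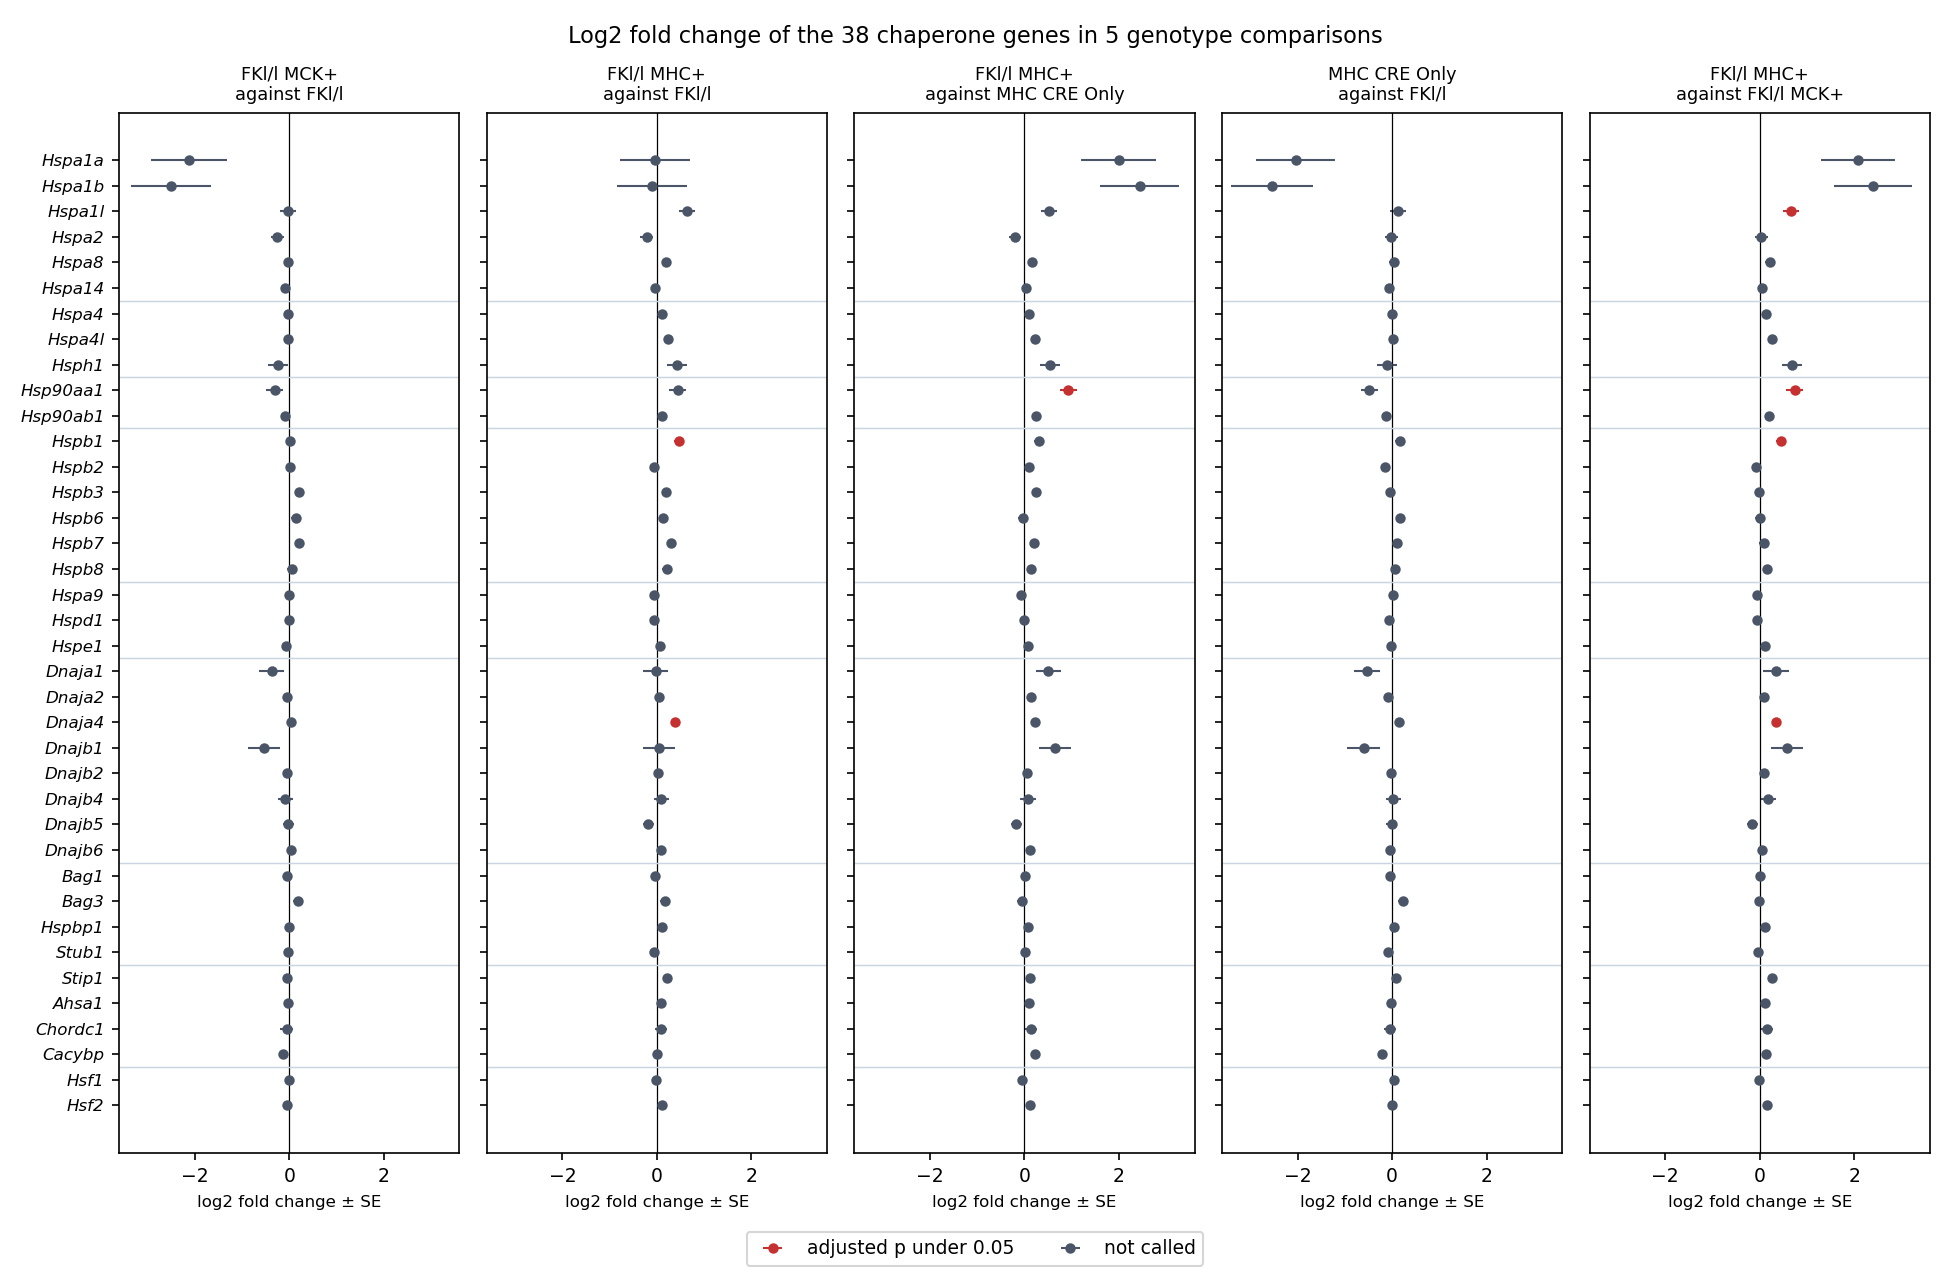
Log2 fold change with its SE of each of the 38 genes in 5 genotype comparisons, ordered by class, with members at an adjusted p under 0.05 in red. Called members lie to the right of 0, and the Hspa1a and Hspa1b points have the widest bars in every panel.

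In the authors' deposited tables, which test against a minimum fold, no member reached an adjusted p under 0.05 in any of the 5 comparisons. The smallest was that of Hsp90aa1 in FKl/l MHC+ against MHC CRE Only hearts, where the authors' deposited table gives a log2 fold change of 0.88 and an adjusted p of 0.397. Few genes of any kind reached that threshold in the deposited tables. Of 16363 rows, 2 did in FKl/l MCK+ against FKl/l, 23 in FKl/l MHC+ against FKl/l and 11 in FKl/l MHC+ against MHC CRE Only. In MHC CRE Only against FKl/l 1 did, and in FKl/l MHC+ against FKl/l MCK+ 14 did. The absence of members therefore says little about them. Tested against a fold of 1.2 with edgeR, no member was called in any genotype comparison either, and the share of all genes is not given here.

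Genes listed as markers of other cells moved in some of these comparisons, and their part in the chaperone differences was not tested. Of 12 endothelial markers 7 were lower in FKl/l MHC+ than in FKl/l MCK+ hearts, where 1.17% of all genes were lower. Of this list Robo4 alone was lower than in FKl/l and than in MHC CRE Only hearts, where 0.649% and 0.78% of all genes were lower. Their summed level was 916 to 1090 CPM in FKl/l MHC+, 1040 to 1479 CPM in FKl/l MCK+, 1044 to 1341 CPM in FKl/l and 1012 to 1145 CPM in MHC CRE Only hearts. Of 10 fibroblast markers 3 were lower in FKl/l MHC+ than in FKl/l MCK+ hearts, 1 was lower than in FKl/l hearts, and 1 was higher in FKl/l MCK+ than in FKl/l hearts. Of 10 skeletal muscle markers, 7 of which were tested, 3 were higher in FKl/l MHC+ than in FKl/l hearts, 2 than in FKl/l MCK+ and 1 than in MHC CRE Only hearts. Their summed level, mostly Acta1 and Ckmt2, was 1408.5 to 2758 CPM in FKl/l MHC+, 1197 to 2270 CPM in FKl/l, 1344 to 1835 CPM in FKl/l MCK+ and 1278 to 1895 CPM in MHC CRE Only hearts, while the fast myosin Myh4 was at 0 in 22 of 24 libraries. Acta1 was at 59.4 to 1619 CPM and Ckmt2 at 918 to 1265 CPM, but Myh1 and Myh2 reached only 0.138 and 0.195 CPM. The sum therefore need not measure skeletal muscle cells. Among smooth muscle and pericyte markers Pdgfrb was lower in FKl/l MHC+ than in FKl/l MCK+ and MHC CRE Only hearts, and among macrophage markers Mrc1 was higher than in MHC CRE Only hearts.

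The labelled batches differed for many of the chaperone genes. In batch 2 against batch 1, with genotype as a term, 20 of 38 members were called, 12 higher and 8 lower, where 38.4% of all genes were called, 22.2% higher and 16.2% lower. Bag1, a nucleotide exchange factor of HSP70, had 141, 163 and 184 CPM as the lowest, median and highest of 12 libraries in batch 1 and 112, 123 and 131 CPM in batch 2, with no overlap between batches (log2 difference −0.44, SE 0.0433, adjusted p = 9.05e-09). Also lower in batch 2 were Hspb2, a muscle small heat shock protein (−0.37, SE 0.0525, adjusted p = 2.36e-06), Hsp90ab1 (−0.33, SE 0.0533, adjusted p = 1.36e-05) and Stub1, the ubiquitin ligase CHIP that marks HSP70 and HSP90 clients (−0.23, SE 0.0441, adjusted p = 0.00012). Cryab, which overlaps Hspb2 on the other strand, was also lower in batch 2 (1316 ± 111 CPM against 1619 ± 200 CPM; SD, n = 12; log2 difference −0.30, SE 0.0589, adjusted p = 0.000187), and its part in the Hspb2 difference was not tested. Higher were Bag3 (0.32, SE 0.0718, adjusted p = 0.000691), the chaperonin subunit Hspd1 (0.21, SE 0.0530, adjusted p = 0.00263), the HSP90 co-chaperone Chordc1 (0.34, SE 0.0933, adjusted p = 0.00516) and Hspa1b (2.10, SE 0.610, adjusted p = 0.00984). Bag3 had 183 to 324 CPM in batch 1 and 266 to 363 CPM in batch 2, so its batches overlapped. Not every genotype followed these batch values. In MHC CRE Only hearts the means of batch 1 and batch 2 were 299 and 283 CPM for Bag3 and 24.4 and 21.2 CPM for Chordc1, while the remaining genotypes were higher in batch 2. Hspa1b was at 2.38 to 5.95 CPM in MHC CRE Only hearts over both batches. The labels do not say what a batch is.

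Whether a genotype difference itself differed between batches was tested with an interaction term. The counts of members called were 0 of 38 for FKl/l MCK+ against FKl/l, with 0% of all genes called and 4 members at an unadjusted p under 0.05 against 2.77% of all genes, and 0 for FKl/l MHC+ against FKl/l, with 0.00624% called and 3 against 13.7%. They were also 0 for FKl/l MHC+ against FKl/l MCK+, with 0.0187% called and 8 against 16.1%. DESeq2 called 0, 0 and 1 in these. For FKl/l MHC+ against MHC CRE Only 3 were called, Dnajb4, Chordc1 and Hspd1, with 3.07% of all genes, and for MHC CRE Only against FKl/l 5, Dnajb4, Chordc1, Hspa8, Stip1 and Dnaja4, with 5.57%. Without the library labelled MHC CRE Only 1-3 both of these counts were 0. Each of the calls was also lost without MHC CRE Only 2-3, and each was lost without some other single library as well.

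Between hearts of 1 genotype and batch, many chaperone genes were high where Hsph1 was high. Hsph1, an HSF1 target with no near-identical copy, was used as the reference, and log2 CPM less the mean of each genotype and batch was correlated with it over 24 libraries for 37 other members. The median r was 0.550 over the members and 0.00492 over all 16017 other genes tested, and 31 of the 37 had r above 0. At an unadjusted permutation p under 0.05 there were 20 members with positive r, against 4.76% of all genes, and 1 with negative r, against 3.78%. Adjusted over all 16017 genes no member was called; the smallest p that 100000 shuffles within genotype and batch can give, 1e-05, corresponds to an adjusted p of 0.16 for the single gene that reached it. The members were chosen with earlier results known and in part as HSF1 targets, as Hsph1 is. Adjusted over the 37 relations 14 were called, a count that is therefore not independent evidence. This count was 2 without FKl/l MHC+ 2-1, 8 without FKl/l 2-1 or FKl/l MHC+ 2-3, 9 without FKl/l 2-3 or FKl/l MCK+ 1-2, and 3 with Dnajb1 in place of Hsph1.

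That gene was Hspa1b, which had the highest r of all 16017 genes (r = 0.893, rho = 0.880, permutation p = 1e-05 for both, adjusted p = 0.16). Hspa1a was at rank 3 (r = 0.874, permutation p = 0.00027, rho = 0.826, permutation p = 0.00042, adjusted p for r = 0.327). Hsp90aa1 had rank 7 (r = 0.819, permutation p = 0.021, rho = 0.670, permutation p = 0.0119) and Dnaja1, a farnesylated J protein of HSP70, rank 8 (r = 0.808, permutation p = 0.0157, rho = 0.648, permutation p = 0.0141), with adjusted p of 0.479 and 0.456. The list thus held 4 of the 8 genes most correlated with Hsph1, though Hspa1a and Hspa1b are near-identical and best read together. Hsph1 is an HSF1 target, and the list was picked in part for such targets. Cacybp, Chordc1, Ahsa1, Dnajb4 and Dnajb1 had ranks 11, 16, 20, 30 and 35.

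The correlation was also computed in each batch, and the difference between batches was not tested. For Hspa1b r was 0.613 in batch 1 and 0.959 in batch 2, for Hspa1a 0.480 and 0.969, for Dnajb1 0.126 and 0.974 and for Hsp90aa1 0.0906 and 0.984, each over 12 libraries. The 2 libraries farthest from the median of Hsph1 were FKl/l MHC+ 2-1 and FKl/l 2-1, both low for their genotype and batch. Without them r was 0.794 for Hspa1b, 0.752 for Hspa1a, 0.606 for Hsp90aa1 and 0.618 for Dnaja1. The members with r nearest to 0 included Hspb7 (r = 0.0429, permutation p = 0.88, rho = 0.133, permutation p = 0.612), Hsf1 (r = −0.0654, permutation p = 0.74, rho = −0.142, permutation p = 0.531) and Hsf2 (r = −0.0402, permutation p = 0.899, rho = 0.0783, permutation p = 0.767). Bag1 had the lowest r (r = −0.403, permutation p = 0.0228, rho = −0.450, permutation p = 0.0637, adjusted p for r = 0.487).

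**Figure D5:**
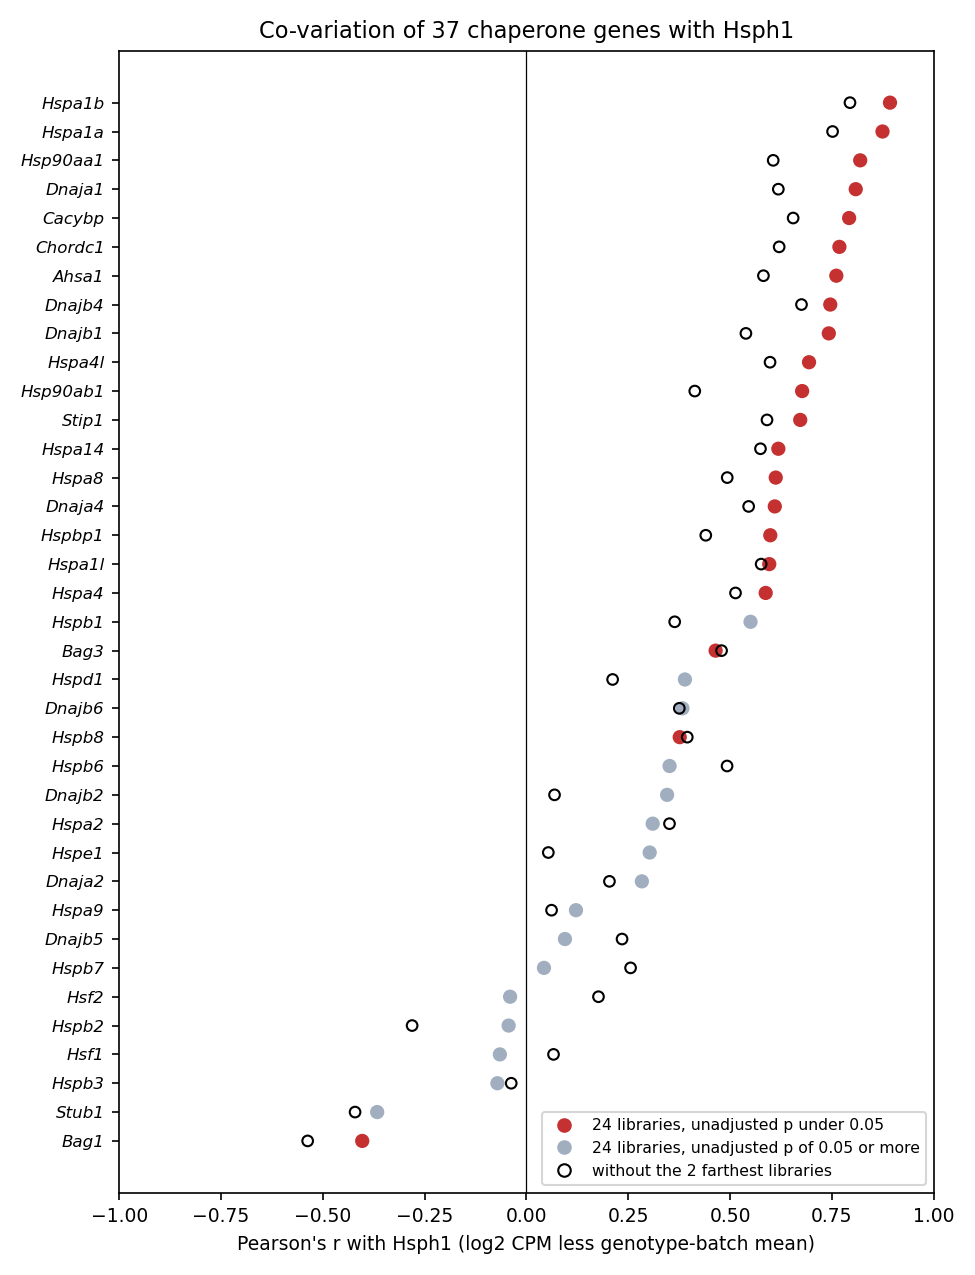
Pearson's r of 37 chaperone genes with Hsph1 over 24 libraries after removal of genotype and batch means, in red where the unadjusted permutation p is under 0.05, with open circles for r without the 2 libraries farthest from the median. Hspa1b and Hspa1a have the highest values, 0.893 and 0.874, and Bag1 has the lowest at −0.403.

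Other genes of protein folding were taken from lists of their relatives. None of 14 genes of the cytosolic chaperonin TRiC and its partner prefoldin was called in a genotype comparison. In FKl/l MHC+ against FKl/l 13 of the 14 lay above 0, against 49.2% of all genes, with a median log2 fold change of 0.11. None of 16 other HSP90 co-chaperones and none of the 16 tested of 17 other HSF1 targets and proteotoxic stress genes was called in any of the 5 comparisons. The tested crystallin and small heat shock relatives, 2 of 4, were not called either.

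Of 9 genes of chaperone-assisted autophagy and its Z-disc clients, 2 rose in FKl/l MHC+ against FKl/l hearts, where 1.06% of all genes were called higher. They were Flnc, filamin C, the client that BAG3 removes (0.40, SE 0.0925, adjusted p = 0.0169), and Des, the muscle intermediate filament desmin (0.37, SE 0.0967, adjusted p = 0.0399). Flnc was also higher than in FKl/l MCK+ hearts (0.43, SE 0.0925, adjusted p = 0.0106). Bag3 itself had log2 differences of 0.17 (SE 0.101) and −0.01 (SE 0.101) in these comparisons and was not called. Against MHC CRE Only hearts, 0 of the 9 genes were called in FKl/l MHC+ hearts, with 5 above 0, against 46.3% of all genes, and a median of 0.04. In MHC CRE Only against FKl/l hearts 0 were called, but all 9 lay above 0, against 50.9% of all genes, with a median of 0.10.

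A few relatives of the 38 genes were lower than in hearts with Cre alone. In FKl/l MHC+ against MHC CRE Only hearts, 2 of 14 endoplasmic reticulum and mitochondrial chaperones outside the 38 members fell, where 0.78% of all genes were called lower. They were Hspa5, the luminal HSP70 BiP (−0.33, SE 0.0851, adjusted p = 0.0388), and the disulfide isomerase Pdia6 (−0.24, SE 0.0612, adjusted p = 0.0373). Of 12 other nucleotide exchange and BAG genes 2 fell, Hyou1, the luminal HSP110 (−0.34, SE 0.0615, adjusted p = 0.00291), and Hspa12a, a distant HSP70 relative (−0.37, SE 0.0882, adjusted p = 0.0261). Hspa12a was also lower than in FKl/l MCK+ hearts (−0.49, SE 0.0882, adjusted p = 0.00251). Of 18 other J proteins 1 rose against MHC CRE Only hearts, Dnajc2, a ribosome-associated J protein (0.39, SE 0.0899, adjusted p = 0.0208), where 1.09% of all genes were called higher.

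Of the 21 immediate early genes 2 were higher in FKl/l MHC+ than in FKl/l MCK+ hearts, where 0.986% of all genes were called higher. They were Ier3 (0.53, SE 0.117, adjusted p = 0.0146) and Socs3, a feedback inhibitor of cytokine signalling (0.52, SE 0.136, adjusted p = 0.0395). All 21 lay above 0 there, with a median of 0.52, where 48.3% of all genes lay above 0. In batch 2 against batch 1, 14 of the 21 were higher, where 22.2% of all genes were called higher.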

How the data were processed

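RNA of whole mouse hearts, extracted with TRIzol and made into strand-keeping libraries per the labels' protocols, was sequenced in 24 libraries. The submitters' processing notes name bcl2fastq 2.17, FastQC, Trim Galore, STAR, RSEM and the mm10 build. The authors deposited whole-number counts per Ensembl gene, with no annotation or strand setting named in the sources used here. Of 56384 rows, 3660 that name transcripts (0.873 to 4.28% of counts) were left out. The authors' deposited comparison tables give log2 fold changes, log2 mean levels, a test score and p-values, and were used for the sentences that name them.

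The members, gene lists and tests were chosen with earlier results of these data known. Counts were filtered with filterByExpr, scaled by TMM and fitted with edgeR 4.0.16 (R 4.3.3; quasi-likelihood test, robust, 2-sided, Benjamini-Hochberg adjustment over 16018 genes, called under 0.05), with genotype and batch as terms over all 24 libraries. CPM are counts over the TMM-scaled library size; lengths are union exons of GENCODE on GRCm38. Correlations used log2 CPM (prior count 2) and 100000 shuffles within genotype and batch. Sequences come from RefSeq tables. Alternatives were DESeq2 1.42.0, limma 3.58.1, other scalings, filters and sample sets. The test was checked on simulated data.

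Genes were named by rule: Fkbp1a, called members, the 3 uncalled members of smallest p per comparison, the highest member per class, up to 4 called members per direction between batches, flagged members, and up to 4 called genes per other list and comparison. Others named (such as Dnajb1 and Hsph1 by library, and the correlation and spread examples) were chosen after their values were seen. The 24 libraries limit precision. Counting error is small beside the spread for abundant members, but not for members with few counts such as Hsf2 (10426 counts over all libraries, SD of log2 CPM 0.0890). Of 60 library pairs within groups none agreed within sampling noise (chi-square per degree of freedom 7.87 to 143).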

Additional observations from a re-analysis of the deposited data

Results flagged for a closer look

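In 15 of 152 combinations of gene and genotype, 1 of the 6 libraries lay far from the other 5; chance alone marks about 1 in 20. FKl/l MHC+ 2-3 was far above its group for Hspa1a (91.6 CPM) and Hspa1b (83.7 CPM), as was FKl/l MCK+ 2-3 for Hspa1a (12.7 CPM) and Hspa1b (8.99 CPM), and MHC CRE Only 2-3 for Hspa1b (5.95 CPM). The library labelled MHC CRE Only 1-3 was the highest of its label, far from the others, for Hspa4 (126 CPM), Dnajb4 (75.6 CPM), Dnajb5 (68.1 CPM), Chordc1 (28.3 CPM) and Hspa14 (11.3 CPM). FKl/l MCK+ 1-2 was far below its group for Hspa9 (382 CPM) and Hspa4 (83.9 CPM), and FKl/l MHC+ 2-1 for Hsp90aa1 (104 CPM) and Hspbp1 (17.2 CPM). FKl/l MHC+ 2-2 was far from its group for Dnaja2 (151 CPM).

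By edgeR's interaction test, 8 differences between genotypes themselves differed between batches, in 6 genes. None of these calls was left without the library labelled MHC CRE Only 1-3, and all were also lost without MHC CRE Only 2-3. Other single libraries ended each call as well. The libraries on which a call depended ranged from 3 for Dnajb4 in FKl/l MHC+ against MHC CRE Only to 11 for Dnaja4. The log2 difference of FKl/l MHC+ from MHC CRE Only was higher in batch 2 than in batch 1 by 1.06 for Dnajb4 (adjusted p = 0.0155), 0.81 for Chordc1 (adjusted p = 0.0274) and 0.46 for Hspd1 (adjusted p = 0.0353). For MHC CRE Only against FKl/l the change from batch 1 to batch 2 was −0.86 for Dnajb4 (adjusted p = 0.0285), −0.70 for Chordc1 (adjusted p = 0.037), −0.55 for Hspa8 (adjusted p = 0.0225), −0.48 for Stip1 (adjusted p = 0.0219) and −0.44 for Dnaja4 (adjusted p = 0.0427). These comparisons share the MHC CRE Only libraries.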

How the results depend on the processing

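Counts of members called in FKl/l MHC+ against FKl/l (2), FKl/l MHC+ against MHC CRE Only (1), MHC CRE Only against FKl/l (0) and FKl/l MHC+ against FKl/l MCK+ (4) became 4, 4, 1 and 7 with DESeq2. Against a fold of 1.2 the first, the second and the last were 0, 0 and 0, and the batch count of 20 was 2. Without the batch term they were 1, 0 and 0. Batch 1 alone gave 5 for the first, and batch 2 alone 9 for the second and 1 for the last. Without the 3 libraries that stand apart the first and the second were 4 and 0, and the last was 2 in a fit of its genotypes alone and 2 with no filter on low counts. The share of all genes called under each alternative of this section is not given here. A larger count of members is therefore not read as a stronger result for them.

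Leaving out each library in turn gave 0 to 0 for FKl/l MCK+ against FKl/l, 1 to 4, 1 to 4, 0 to 0 and 0 to 6 for those above in order, and 14 to 23 for batch.

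The difference between batches in FKl/l MHC+ against MHC CRE Only (3 members) and in MHC CRE Only against FKl/l (5) was called for 5 and 10 with DESeq2, 10 and 13 with no filter and 0 and 0 without the 3 libraries; leaving out each library gave 0 to 9 for both. With no filter, the difference between batches in FKl/l MCK+ against FKl/l was called for 5 members. That in FKl/l MHC+ against FKl/l was called for 4, and that in FKl/l MHC+ against FKl/l MCK+ for 5. The last was called for 1 by DESeq2 and for 0 to 1 leaving out each library.

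Members correlated with Hsph1 (14 adjusted over 37 relations) were 0 adjusted over all genes tested, an alternative chosen after seeing the data, 3 with Dnajb1 as the reference, 22 with genotype means alone removed, 1 in batch 1, 3 in batch 2 and 2 to 16 leaving out each library, with 2 without FKl/l MHC+ 2-1.

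Replicate numbers did not pair the libraries: same-numbered libraries had correlations of −0.238 to 0.162, with 3 of 36 over 0.1. With a replicate block, FKl/l MHC+ against FKl/l MCK+ had 2 members and the batch difference in MHC CRE Only against FKl/l 3.

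Of the alternatives for single named members, 1137 kept direction and side of the threshold, 137 lost the call, 30 gained one and 0 reversed. The cause of these changes was not tested.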

Other observations

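Among the genes most correlated with Hsph1 between hearts of 1 genotype and batch were several that are no chaperones, picked here after their values were seen. P4ha1, a collagen prolyl hydroxylase subunit, had rank 2 of 16017 (r = 0.879, permutation p = 0.00049, adjusted p = 0.327 over all genes), and Egln3, an oxygen-sensing prolyl hydroxylase, had rank 4 (r = 0.850). None passed the adjustment over all genes, and no explanation was tested.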
